A study of Rattus norvegicus with 7 samples.

Results

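Histones are the proteins around which DNA is wound, and the genes described here are all protein-coding rows of the expression table whose symbol starts with Hist and a digit, or with H1f, H2af or H3f. There were 49 such rows among 17141 listed genes. Of these, 40 rows (31 symbols) were replication-dependent histones, named Hist followed by a cluster number, and 9 rows (8 symbols) were variant histones. The letters after the cluster number name the protein: h1 is the linker histone, and h2a, h2b, h3 and h4 form the core of the nucleosome. Because 6 symbols stood on more than 1 row, 16 rows are told apart below by their Ensembl identifier, and near-identical copies can share or lose reads, so the level of a single histone row is uncertain.

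The cells were ventricular cardiomyocytes of wild type Wistar rats at postnatal day 0. The atria had been removed, and cells that did not attach during a stay on plastic, mostly cardiomyocytes by the submitters' account, were kept. Each culture received a synthetic miRNA (25 nM in the medium) and was lysed 72 h later. By its title the study asked which pathways are common to miRNAs that make cardiomyocytes proliferate. There were 7 libraries, 1 for each miRNA. The reference was cel-miR-67, a nematode miRNA that the authors' deposited ratios have as denominator, and the others were miR-199a-3p, then miR-590-3p, then miR-373-3p, then miR-302d-3p, then miR-33b* and last miR-1825. Lists of 6 values below run in this fixed order. No miRNA has a second library, so differences could not be checked against replicates, and "higher" and "lower" describe these libraries only.

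Replication-dependent histone genes are switched on in S phase, when new DNA must be packed. Their transcripts mostly end in a stem-loop, bound by the protein Slbp, in place of a poly(A) tail, although some of the genes also give polyadenylated forms. Variant histones are made outside S phase too, mostly from ordinary polyadenylated transcripts, and take over set tasks in chromatin. The libraries were made with the TruSeq mRNA protocol, which selects polyadenylated RNA, so the values describe the histone transcripts that this selection retained and not the whole histone RNA of the cells.

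Promoters of histone genes share short motifs, and 5 promoters are shown for rows that come back below: linker histone genes that stood above the reference after every miRNA, an H2A and an H2B gene with unlike patterns, and the most abundant H2A variant. Each line gives the 130 bases before the transcription start, 5′ to 3′, from RefSeq on the build GRCr8. Capitals mark 4 motifs on either strand. They are the CCAAT box with the letters CCAAT, the TATA box with the letters TATAAA, the octamer with the letters ATTTGCAT, and the H1 box with the letters AAACACA. A motif on the opposite strand shows as its reverse complement. The submitters' processing notes name another build, Rnor_6.0.
Hist1h1a (RefSeq symbol H1f1, chr17:41794869-41794998, minus strand): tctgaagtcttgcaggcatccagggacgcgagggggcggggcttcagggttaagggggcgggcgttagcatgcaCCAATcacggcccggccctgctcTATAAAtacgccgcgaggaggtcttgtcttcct
Hist1h1b (RefSeq symbol H1f5, chr17:47421745-47421874, plus strand): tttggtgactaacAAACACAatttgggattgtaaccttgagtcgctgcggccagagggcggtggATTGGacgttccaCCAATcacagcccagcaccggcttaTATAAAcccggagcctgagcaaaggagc
Hist2h2ac (RefSeq symbol H2ac20, chr2:186469227-186469356, minus strand): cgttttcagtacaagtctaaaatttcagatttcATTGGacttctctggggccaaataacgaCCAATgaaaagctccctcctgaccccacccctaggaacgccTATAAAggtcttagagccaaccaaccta
Hist1h2bk (RefSeq symbol H2bc12, chr17:47181941-47182070, minus strand): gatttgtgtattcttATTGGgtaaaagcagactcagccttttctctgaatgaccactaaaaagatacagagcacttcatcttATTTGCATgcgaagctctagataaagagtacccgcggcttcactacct
H2afz (RefSeq symbol H2az1, chr2:229028965-229029094, plus strand): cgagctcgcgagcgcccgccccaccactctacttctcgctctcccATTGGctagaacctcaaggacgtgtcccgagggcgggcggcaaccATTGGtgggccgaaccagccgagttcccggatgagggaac

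In the printed bases of Hist1h1a, Hist1h1b and Hist2h2ac the TATA box began 33, 28 and 28 bases before the start, and a CCAAT box on the same strand 56, 53 and 69 bases before it. Hist1h2bk had the octamer, a motif known from H2B promoters, 48 bases before the start. H2afz had CCAAT boxes on the opposite strand, 85 and 40 bases before the start. Of the 49 rows 24 could be matched by symbol to a single RefSeq gene with a longer window, from 250 bases before to 50 after the start. Over both strands of these windows the CCAAT box was in 16 of 18 replication-dependent and 3 of 6 variant promoters, against 37.5% of all 33469 windows. The TATA box was in 12 of 18 and 1 of 6, against 14.2%, and the variant that held it was H2afz, outside the bases printed above. The 18 replication-dependent windows were of 3 H1, 7 H2A, 7 H2B and 1 H4 row, and no H3 row was matched. That H4 window held neither the CCAAT box nor the TATA box. The octamer was in 4 of 7 H2B and 4 of 7 H2A windows and in 0 of 6 variant windows, against 1.78%. The H1 box was in 2 of 3 H1, 1 of 7 H2A, 1 of 7 H2B and 0 of 6 variant windows, against 6.99%. Neighbouring histone genes can share a promoter region in opposite directions, so the windows are not independent, and a match of letters is a description and not a site of binding.

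Levels are given as RPKM, reads per kilobase of gene scaled to library size, and changes as the log2 ratio to cel-miR-67 after adding 1 RPKM to both values, a scale that compresses low rows. A row is called measured where its mean over the 7 libraries reached 1 RPKM, and higher or lower where it passed 1.5-fold on the log2 scale. The listed genes held between 22616067 and 31963293 reads per library. These were 85.5% (miR-199a-3p) to 109.5% (cel-miR-67) of the size that the RPKM had been divided by, so that size is a scaled one and not a count of the library's reads. Mitochondrial transcripts took 27.7% (miR-199a-3p) to 41.4% (miR-590-3p) of the listed reads. Of 13 chosen cardiomyocyte markers 12 were among the listed genes, and all 12 were measured. They summed to 23496 RPKM in cel-miR-67 and 17199 to 22759.5 in the others, lowest after miR-199a-3p. Fibroblast markers (10 of 11 measured) summed to 853 RPKM in cel-miR-67 and 565 to 818 in the others. Smooth muscle and pericyte markers (9 of 9) summed to 1519 RPKM in cel-miR-67 and 1394 to 1994 in the others. Endothelial markers (5 of 9 listed, from 10 chosen) summed to 26.4 RPKM in cel-miR-67 and 15.9 to 20.1 in the others. Epicardial markers (5 of 6) summed to 27.9 RPKM in cel-miR-67 and 17.2 to 21.6 in the others. Macrophage and leukocyte markers (6 of 9) summed to 21.4 RPKM in cel-miR-67 and 15.96 to 21.9 in the others. Erythroid markers (4 of 7 listed, from 8 chosen) summed to 9.67 RPKM in cel-miR-67 and 6.31 to 15.2 in the others. No listed marker was at 0 in any library. The part of other cells in the histone values was not tested, and in such bulk samples fewer cells of a type and less RNA per cell cannot be told apart.

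Replication-dependent histone transcripts stood higher in every miRNA library than in cel-miR-67. Their summed level was 1753 RPKM in cel-miR-67 and 3042, 2939, 2185, 2361, 2438 and 3149 RPKM after the miRNAs, in the fixed order. By this sum the miR-1825 library was the highest and the miR-373-3p library the nearest to the reference. The place of miR-1825 above miR-199a-3p rests on both rows of Hist2h2aa2, described below. By the median change of the measured rows the miR-199a-3p library was the highest, at 0.78 against 0.61 after miR-1825. The ratio of summed reads per library size to cel-miR-67 was 1.81 (1.78 to 1.84) after miR-1825, 1.71 (1.68 to 1.74) after miR-199a-3p and 1.63 (1.61 to 1.66) after miR-590-3p. It was 1.38 (1.35 to 1.40) after miR-33b*, 1.34 (1.32 to 1.36) after miR-302d-3p and 1.27 (1.25 to 1.29) after miR-373-3p. The brackets here and below hold exact 95% intervals (Clopper-Pearson), which cover counting error only and so compare libraries, not conditions.

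**Figure D1:**
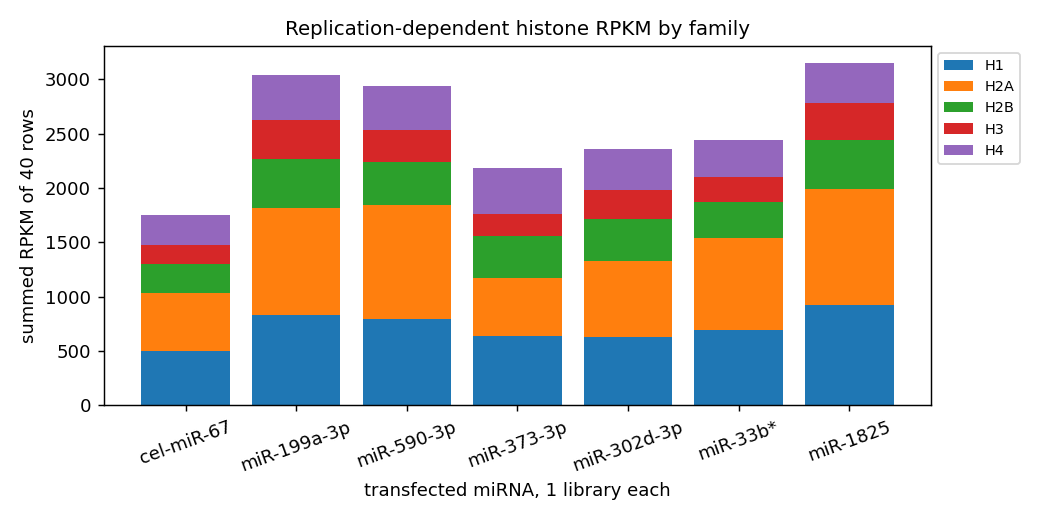
Summed RPKM of the 40 replication-dependent histone rows (y axis) in each of the 7 libraries (x axis, 1 library per miRNA), stacked by histone family. The bar of cel-miR-67 is the lowest at 1753 RPKM, and the H2A part is as high after miR-373-3p (531 RPKM) as in cel-miR-67 (531 RPKM).

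Of the 40 rows 38 were measured. In the fixed order 31, 18, 10, 9, 12 and 20 of the 38 were at least 1.5-fold higher than in cel-miR-67, where 4.81%, 4.70%, 4.83%, 5.11%, 5.17% and 5.94% of all 12330 measured genes were. None of the 38 was at least 1.5-fold lower, where 5.55%, 3.49%, 6.56%, 7.32%, 5.52% and 6.33% of all genes were. At least 2-fold higher were 7, 7, 1, 1, 0 and 6 rows, against 1.04%, 1.51%, 1.15%, 1.31%, 1.30% and 2.00% of all genes. The row after miR-302d-3p was Hist1h2aa, with 4 reads in cel-miR-67. Hist1h2aa reached the limit of 1 RPKM only through miRNA libraries, so its calls follow in part from that limit. When the RPKM were rescaled to the reads of the listed genes, the higher and lower shares of all genes became 15.8% and 2.04%, 4.74% and 3.13%, 9.13% and 3.80%, 12.98% and 4.01%, 7.47% and 3.77%, and 8.62% and 4.34%. The measured histone rows called higher, replication-dependent and variant together, were then 41, 20, 16, 26, 21 and 27 of 47, where they were 33, 20, 10, 10, 15 and 23 without rescaling. The median change of the 38 rows was 0.78, 0.56, 0.32, 0.40, 0.39 and 0.61, with the median of all genes between -0.0034 and 0.015.

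Above the reference in all 6 libraries were 29 of the 38 rows, Hist1h2aa among them, a pattern of 13.9% of all measured genes. The highest library was miR-199a-3p for 18 rows and miR-1825 for 12, and the lowest was cel-miR-67 for 29 and miR-373-3p for 5. Every comparison has the same single reference library, and a low value in it enters all 6. Most rows are short: the median length was 393 bases, and 34 of the 40 lengths were multiples of 3, as those of coding sequences are. Among 390 other measured protein-coding rows of at most 500 bases the median change lay between -0.13 (miR-199a-3p) and 0.13 (miR-373-3p), and 6.15% to 8.97% of them were higher.

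**Figure D2:**
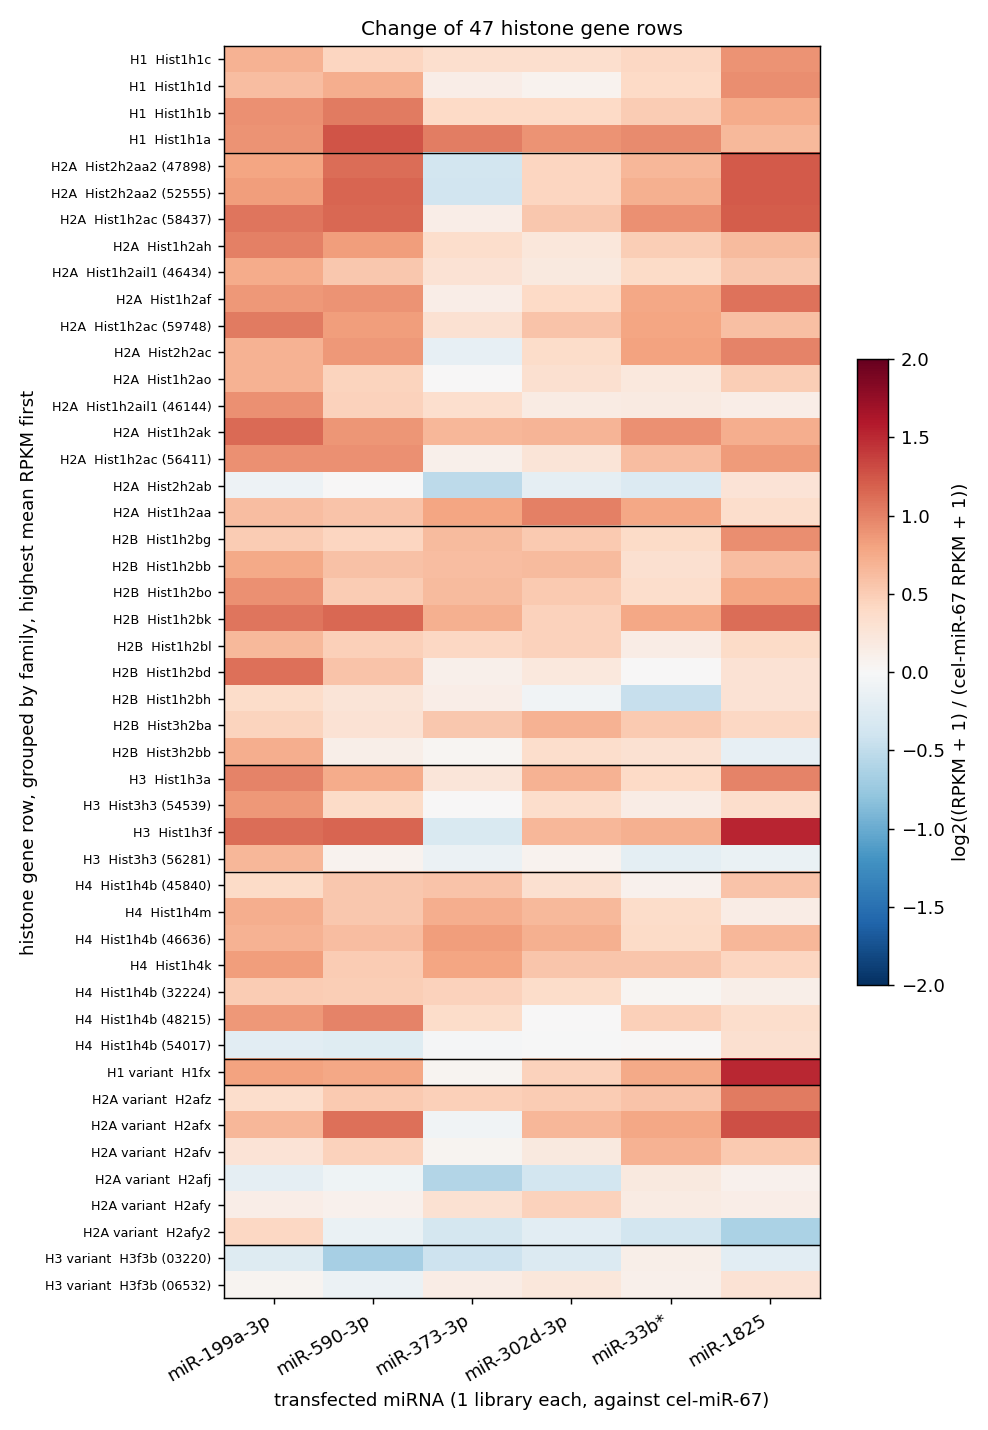
Change of the 47 measured histone rows (y axis, by family, with the last 5 digits of the Ensembl identifier where a symbol stands on several rows) after each miRNA (x axis), as log2 of the RPKM ratio to cel-miR-67 with 1 RPKM added. Red is higher and blue lower than cel-miR-67; 31 of the 38 replication-dependent rows are above 0 in the miR-373-3p column and 35 to 37 in the others.

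Linker histones, which bind the DNA between nucleosomes, were among the most abundant rows. Hist1h1c was at 269.9 RPKM in cel-miR-67 and at 437, 364, 342, 341, 361 and 503 after the miRNAs. Hist1h1c had the highest level of all replication-dependent rows and lay above the reference in every library, with ratios from 1.26 (1.21 to 1.31) after miR-302d-3p to 1.86 (1.79 to 1.94) after miR-1825. Hist1h1d was at 133 RPKM in cel-miR-67 and at 205, 220.2, 146, 139.9, 174 and 254 after the miRNAs. Its ratio was smallest in the miR-302d-3p library, at 1.05 (1.00 to 1.11), and largest in the miR-1825 library, at 1.92 (1.82 to 2.02).

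Hist1h1b was at 79.1 RPKM in cel-miR-67 and at 150.5, 164, 105, 105, 113 and 133 after the miRNAs. Here the miR-590-3p library was the highest, at a ratio of 2.07 (1.93 to 2.21). Hist1h1a was at 20.7 RPKM in cel-miR-67 and at 39.6, 51.2, 43.2, 39.3, 40.8 and 33.01 after the miRNAs. Hist1h1a, whose promoter is shown first above, was 1 of 2 histone rows at least 1.5-fold higher in all 6 libraries, a pattern of 0.584% of all measured genes. Its smallest ratio was 1.59 (1.40 to 1.82) after miR-1825, the library where Hist1h1c and Hist1h1d were highest, and its largest 2.47 (2.18 to 2.80) after miR-590-3p. The remaining linker row was below the limit of 1 RPKM.

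With all its rows counted, the H2A sum had the widest span of the 5 replication-dependent families between the miRNA libraries. H2A rows summed to 531 RPKM in cel-miR-67 and to 983, 1045, 531, 707, 846 and 1069 RPKM after the miRNAs. Read ratios were 2.01 (1.94 to 2.08) after miR-1825, 1.97 (1.90 to 2.03) after miR-590-3p and 1.00 (0.96 to 1.04) after miR-373-3p. The level after miR-373-3p differed between rows: 10 of the 14 were above the reference, and below it were both Hist2h2aa2 rows, Hist2h2ab and Hist2h2ac. Leaving out the Hist2h2aa2 rows was a choice made after the values were seen. The H2A sum was then 306 RPKM in cel-miR-67 and 357 after miR-373-3p, a ratio of 1.17 (1.11 to 1.23). The highest sum was then 587 RPKM after miR-199a-3p, a ratio of 1.92 (1.83 to 2.00), with 541 RPKM after miR-1825, a ratio of 1.76 (1.68 to 1.84). The widest span thus rests on the Hist2h2aa2 rows. H3 ratios ran from 1.08 (1.02 to 1.15) after miR-373-3p to 1.97 (1.86 to 2.09) after miR-199a-3p. Of all replication-dependent RPKM, H2A rows made up 30.3% in cel-miR-67, 24.3% after miR-373-3p and 29.9% to 35.6% in the rest. Of the 14 rows 13, 9, 2, 2, 9 and 9 were at least 1.5-fold higher, against 4.81%, 4.70%, 4.83%, 5.11%, 5.17% and 5.94% of all genes. Hist1h2aa, with 4 reads in cel-miR-67, was among them in 4 libraries, miR-373-3p and miR-302d-3p included.

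Hist2h2aa2 was the most abundant H2A symbol. Its row ENSRNOG00000047898 was at 133 RPKM in cel-miR-67 and at 231, 289, 103, 179.6, 211 and 310.4 after the miRNAs. Its row ENSRNOG00000052555 was at 92.2 RPKM in cel-miR-67 and at 165, 208, 70.9, 124, 151 and 218 after the miRNAs. Both rows were lowest after miR-373-3p, below the reference, with ratios of 0.78 (0.72 to 0.84) and 0.77 (0.70 to 0.85), and highest after miR-1825, with 2.34 (2.19 to 2.51) and 2.36 (2.18 to 2.56). Hist2h2ac was at 26.95 RPKM in cel-miR-67 and at 44.5, 50.3, 23.98, 35.1, 47.7 and 54.4 after the miRNAs. The H2A gene Hist2h2ac, with its promoter shown above, was again lowest after miR-373-3p, although its ratio of 0.89 (0.74 to 1.06) did not leave 1 beyond counting error. Hist2h2ab, of the same cluster by its name, had 1.66 to 3.61 RPKM after the miRNAs and 2.81 in cel-miR-67, and passed 1.5-fold in no library.

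Hist1h2ac stood on 3 rows. ENSRNOG00000058437 was at 57.6 RPKM in cel-miR-67 and at 122, 129, 63.5, 83.7, 109.7 and 134 after the miRNAs. ENSRNOG00000056411 was at 17.7 RPKM in cel-miR-67 and at 34.1, 34.2, 19.2, 21.3, 27.7 and 32.96 after the miRNAs. ENSRNOG00000059748 was at 26.4 RPKM in cel-miR-67 and at 55.02, 47.6, 32.9, 39.8, 46.3 and 40.6 after the miRNAs. All of these were lowest of the 6 after miR-373-3p, while the highest library was miR-1825, miR-590-3p and miR-199a-3p, respectively. Hist1h2af was at 30.2 RPKM in cel-miR-67 and at 55.9, 56.99, 33.2, 40.1, 52.3 and 65.4 after the miRNAs. Hist1h2af was likewise lowest after miR-373-3p, at 1.10 (0.94 to 1.29), and highest after miR-1825, at 2.17 (1.88 to 2.51).

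Most other H2A rows were highest after miR-199a-3p. Hist1h2ah was at 34.7 RPKM in cel-miR-67 and at 70.9, 62.9, 44.6, 40.9, 49.4 and 54.5 after the miRNAs. Hist1h2ak was at 18.9 RPKM in cel-miR-67 and at 42.5, 35.5, 30.5, 30.8, 36.5 and 31.7 after the miRNAs. Hist1h2ak was the other row at least 1.5-fold higher in all 6 libraries, with ratios of 1.62 (1.35 to 1.96) after miR-373-3p to 2.25 (1.88 to 2.71) after miR-199a-3p. Hist1h2ao was at 27.5 RPKM in cel-miR-67 and at 45.3, 37.6, 27.6, 34.7, 32.1 and 39.1 after the miRNAs. For Hist1h2ail1, ENSRNOG00000046144 was at 27.1 RPKM in cel-miR-67 and at 51.98, 37.7, 34.6, 30.6, 30.8 and 29.8 after the miRNAs, and ENSRNOG00000046434 was at 36.1 RPKM in cel-miR-67 and at 60.9, 52.7, 44.3, 41.6, 47.4 and 53.1 after the miRNAs. Hist1h2ao and both Hist1h2ail1 rows passed 1.5-fold after miR-199a-3p alone. Hist1h2aa was at 0.449 RPKM in cel-miR-67 and at 1.22, 1.15, 1.49, 1.91, 1.47 and 0.855 after the miRNAs, from 4 reads in cel-miR-67 and 9 to 26 in the others. It reached the limit of 1 RPKM only through miRNA libraries, so its place above the reference follows in part from that limit.

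H2B rows summed to 264 RPKM in cel-miR-67 and to 449.6, 394, 393, 379, 336 and 446 RPKM after the miRNAs. The read ratio after miR-373-3p was 1.52 (1.46 to 1.58), where that of H2A was 1.00 (0.96 to 1.04), and the intervals do not overlap. After miR-590-3p the order was the reverse, with 1.44 (1.39 to 1.501) for H2B and 1.97 (1.90 to 2.03) for H2A. Although H2A and H2B proteins pair in the nucleosome, their summed transcripts in these libraries did not keep 1 ratio.

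Hist1h2bg was at 84.3 RPKM in cel-miR-67 and at 121, 114, 131, 122, 110.1 and 161 after the miRNAs. The most abundant H2B row, Hist1h2bg, was highest after miR-1825, at 1.91 (1.81 to 2.02), and next after miR-373-3p, at 1.56 (1.47 to 1.65). Hist1h2bb was at 59.5 RPKM in cel-miR-67 and at 101, 89.95, 91.9, 92.4, 74.8 and 92.2 after the miRNAs. Hist1h2bb was at least 1.5-fold higher in 5 libraries and at 1.26 (1.12 to 1.42) after miR-33b*. Hist1h2bo was at 36.96 RPKM in cel-miR-67 and at 70.7, 53.1, 57.8, 53.8, 47.3 and 64.9 after the miRNAs. The miR-199a-3p and the miR-1825 library stood above the rest for Hist1h2bo.

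Hist1h2bk was at 22.7 RPKM in cel-miR-67 and at 48.7, 51.7, 37.7, 31.8, 39.3 and 50.3 after the miRNAs. Hist1h2bk, the gene with the octamer shown above, was at least 1.5-fold higher in 5 of 6 libraries, with 1.40 (1.18 to 1.67) after miR-302d-3p. Hist1h2bd was at 21.01 RPKM in cel-miR-67 and at 46.4, 31.5, 22.5, 24.5, 21.1 and 25.99 after the miRNAs. Hist1h2bd, whose promoter window also held the octamer, was highest after miR-199a-3p, at 2.21 (1.86 to 2.64), and level with the reference after miR-33b*, at 1.00 (0.81 to 1.24). Hist1h2bl was at 28.7 RPKM in cel-miR-67 and at 45.6, 40.4, 38.5, 39.9, 31.9 and 37.9 after the miRNAs, and it too passed 1.5-fold after miR-199a-3p alone. Hist1h2bh was at 6.14 RPKM in cel-miR-67 and at 8.25, 7.52, 6.85, 5.82, 4.21 and 7.74 after the miRNAs, and passed it in no library. Of the low rows, Hist3h2bb (1.85 to 4.25 RPKM over the 7 libraries) passed 1.5-fold after miR-199a-3p and Hist3h2ba (2.10 to 4.02 RPKM) after miR-302d-3p. Hist1h2ba, with a mean of 0.748 RPKM, was the row just outside the limit of 1 RPKM, and Hist1h2aa, with 1.22, the row just inside.

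**Figure D3:**
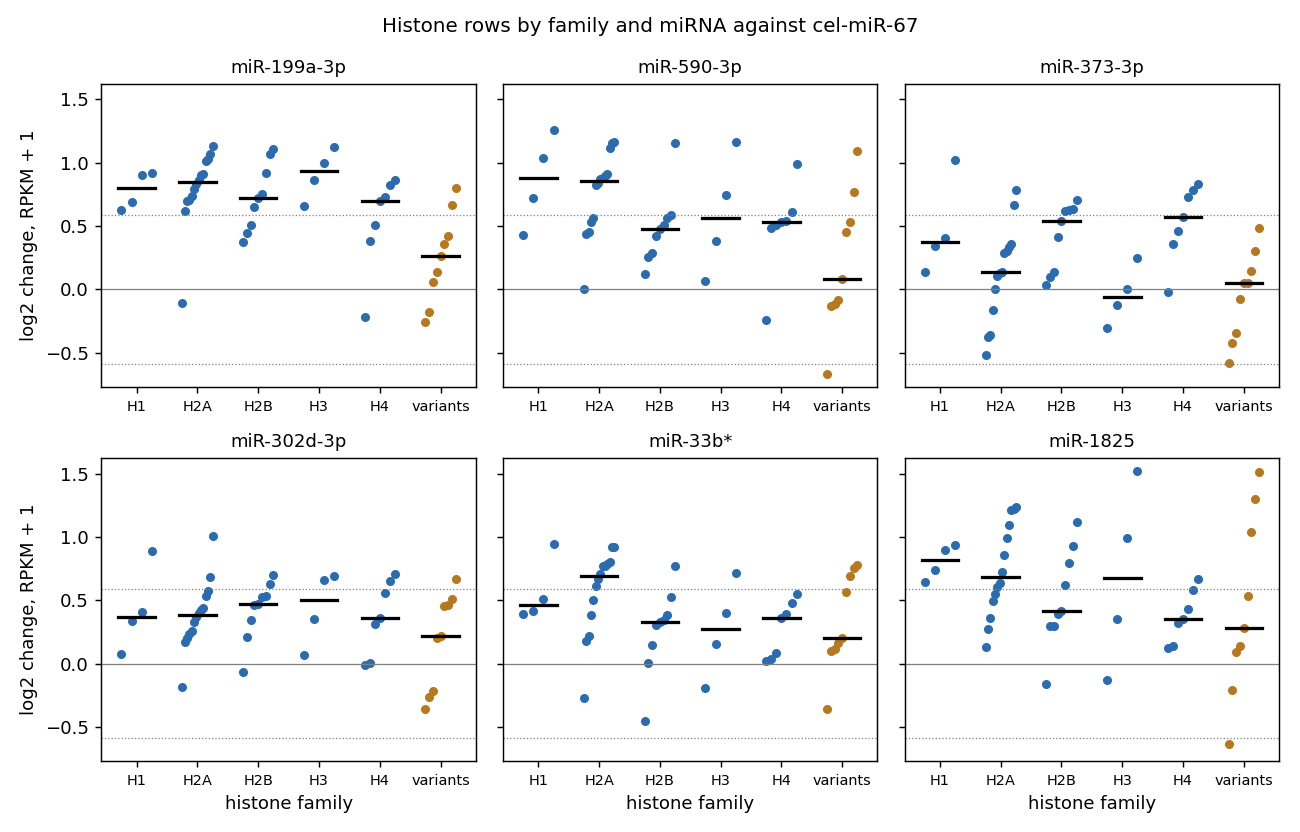
Log2 change against cel-miR-67 (y axis, 1 RPKM added) of every measured row by family (x axis), with a panel for each miRNA. Points are rows (blue replication-dependent, brown variant), black bars their medians and dotted lines 1.5-fold; after miR-373-3p the H2A and H3 medians (0.14 and -0.06) lie below those of H2B and H4 (0.54 and 0.58).

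H3 rows had the same low place after miR-373-3p. They summed to 182 RPKM in cel-miR-67 and to 358, 295, 196, 272, 233 and 340.1 RPKM after the miRNAs. Hist1h3f was at 21.4 RPKM in cel-miR-67 and at 47.8, 49.1, 17.1, 34.3, 35.7 and 62.9 after the miRNAs. Hist1h3f had the widest span of the measured replication-dependent rows of at least 5 RPKM, from 0.80 (0.66 to 0.98) after miR-373-3p to 2.95 (2.51 to 3.47) after miR-1825. Hist1h3a was at 105 RPKM in cel-miR-67 and at 211, 177, 125, 170.5, 139 and 211 after the miRNAs. Hist1h3a was highest in the miR-199a-3p library, at 2.01 (1.86 to 2.16), and the miR-1825 library, at 2.00 (1.86 to 2.16), and lowest of the 6 in the miR-373-3p library, at 1.19 (1.10 to 1.29).

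Hist3h3 stood on 2 rows. ENSRNOG00000054539 was at 43.8 RPKM in cel-miR-67 and at 80.6, 57.3, 43.9, 56.01, 48.9 and 56.2 after the miRNAs. ENSRNOG00000056281 was at 11.1 RPKM in cel-miR-67 and at 18.1, 11.7, 10.1, 11.6, 9.54 and 9.99 after the miRNAs. Both passed 1.5-fold after miR-199a-3p alone, with ratios of 1.84 (1.64 to 2.07) and 1.64 (1.28 to 2.09).

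H4 rows, by contrast, had their highest sums after miR-373-3p and miR-199a-3p. They summed to 274 RPKM in cel-miR-67 and to 418, 406, 427, 378, 333 and 370.2 RPKM after the miRNAs. After miR-1825, where the H1 and H2A sums were the highest of all libraries, the H4 ratio was 1.33 (1.27 to 1.41). After miR-373-3p it was 1.49 (1.41 to 1.56) and after miR-199a-3p 1.45 (1.37 to 1.52), and these intervals overlap. The median change of the H4 rows was 0.58 after miR-373-3p and 0.70 after miR-199a-3p. Hist1h4k was at 30.2 RPKM in cel-miR-67 and at 54.5, 43.4, 52.8, 45.1, 44.7 and 41.03 after the miRNAs. Hist1h4m was at 51.9 RPKM in cel-miR-67 and at 86.6, 75.5, 86.5, 82.00, 66.97 and 57.3 after the miRNAs. Both had the miR-199a-3p and the miR-373-3p library highest and miR-1825 lowest of the 6, where the Hist1h4m ratio of 1.10 (0.96 to 1.27) did not leave 1 beyond counting error.

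Hist1h4b stood on 5 rows. ENSRNOG00000046636 was at 47.4 RPKM in cel-miR-67 and at 77.5, 72.97, 84.98, 77.9, 62.3 and 75.7 after the miRNAs, at least 1.5-fold higher in all but the miR-33b* library. ENSRNOG00000045840 was at 79.2 RPKM in cel-miR-67 and at 104, 116, 118, 98.6, 83.96 and 119 after the miRNAs. ENSRNOG00000048215 was at 21.5 RPKM in cel-miR-67 and at 40.04, 43.6, 27.9, 21.5, 30.3 and 27.6 after the miRNAs. This row had its high values in the miR-199a-3p and the miR-590-3p library and was level with the reference after miR-302d-3p. ENSRNOG00000032224 was at 32.1 RPKM in cel-miR-67 and at 46.01, 45.3, 44.6, 41.5, 32.96 and 35.1 after the miRNAs, under 1.5-fold in all. ENSRNOG00000054017 was at 11.7 RPKM in cel-miR-67 and at 9.95, 9.76, 11.6, 11.7, 11.9 and 14.9 after the miRNAs. That last row was below the reference after miR-199a-3p, at 0.85 (0.73 to 0.99), and after miR-590-3p, at 0.83 (0.71 to 0.97), and above it after miR-1825, at 1.27 (1.10 to 1.45). Its length of 1296 bases was the longest of the 40 replication-dependent rows.

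MiR-373-3p shares its seed, the stretch of a miRNA that pairs with targets, with miR-302d-3p, and their libraries can be compared without the reference. The replication-dependent sum after miR-373-3p was 0.95 (0.93 to 0.96) of that after miR-302d-3p, while the families split. The ratio was 0.75 (0.73 to 0.78) for H2A and 0.72 (0.69 to 0.76) for H3. It was 1.02 (1.00 to 1.04) for H1, 1.05 (1.02 to 1.08) for H2B and 1.11 (1.07 to 1.16) for H4. The size of the H2A ratio rested in large part on the Hist2h2aa2 rows. Without them, the H2A sum was 357 RPKM after miR-373-3p and 403 after miR-302d-3p. Of the 14 H2A rows 3 were higher after miR-373-3p than after miR-302d-3p. At least 1.5-fold lower after miR-373-3p than after its seed partner were 4 of the 47 measured histone rows, against 1.42% of all measured genes. They were Hist1h3f, at 0.50 (0.42 to 0.59), both Hist2h2aa2 rows, at 0.57 (0.54 to 0.61) and 0.57 (0.53 to 0.62), and the variant H2afx, at 0.59 (0.54 to 0.64). No histone row was 1.5-fold higher, against 0.981% of all genes.

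By their median and their sum, variant histones stayed nearer to the reference as a group. Their 9 rows, all measured, summed to 1163 RPKM in cel-miR-67 and to 1163, 1072, 1122, 1213, 1407 and 1466 RPKM after the miRNAs. Their median change was 0.27, 0.08, 0.05, 0.22, 0.20 and 0.28. At least 1.5-fold higher were 2, 2, 0, 1, 3 and 3 rows, against 4.81%, 4.70%, 4.83%, 5.11%, 5.17% and 5.94% of all genes. Lower were 0, 1, 0, 0, 0 and 1, against 5.55%, 3.49%, 6.56%, 7.32%, 5.52% and 6.33%. H1fx was among the higher rows in 4 libraries. It had 6 reads in cel-miR-67 and reached the limit of 1 RPKM only through miRNA libraries, so those counts follow in part from that limit. The sum holds rows that went different ways. An H3f3b row of 411 bases, described below, was at 688 RPKM in cel-miR-67 and at 576, 434, 514, 571, 746 and 595 after the miRNAs. That row made up most of the sum in cel-miR-67, so the sum does not describe the other variant rows. Of the 9 rows 4, H1fx among them, were above the reference in all 6 libraries, against 13.9% of all measured genes.

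H2afx was at 23.1 RPKM in cel-miR-67 and at 37.3, 50.4, 21.8, 37.2, 40.3 and 58.1 after the miRNAs. H2afx encodes H2A.X, which is phosphorylated at DNA breaks. It was high in 5 libraries, with ratios from 1.61 (1.48 to 1.76) after miR-302d-3p to 2.52 (2.31 to 2.75) after miR-1825, and level with the reference after miR-373-3p, at 0.95 (0.86 to 1.05). The lowest and the highest library were thus the same as for Hist2h2aa2, Hist2h2ac and Hist1h3f. H2afz was at 313 RPKM in cel-miR-67 and at 400.3, 452, 438, 445, 464 and 643 after the miRNAs. H2afz, the gene of the promoter-bound H2A.Z, was above the reference in all 6 libraries, with ratios from 1.28 (1.22 to 1.34) after miR-199a-3p to 2.06 (1.97 to 2.15) after miR-1825. Between the seed partners H2afz was level, at 0.98 (0.95 to 1.02). H2afv was at 11.1 RPKM in cel-miR-67 and at 13.5, 15.6, 11.6, 12.9, 18.6 and 16.5 after the miRNAs, highest after miR-33b*, at 1.67 (1.49 to 1.88).

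H2afy2 was at 4.93 RPKM in cel-miR-67 and at 6.93, 4.40, 3.66, 4.10, 3.61 and 2.81 after the miRNAs. H2afy2 encodes a macroH2A, a histone of silent chromatin, and was above the reference after miR-199a-3p, at 1.41 (1.19 to 1.67), and below it after miR-1825, at 0.57 (0.46 to 0.71). H2afy was at 7.99 RPKM in cel-miR-67 and at 8.88, 8.53, 10.1, 11.4, 9.07 and 8.90 after the miRNAs. The other macroH2A gene, H2afy, was highest after miR-302d-3p, at 1.43 (1.27 to 1.604). H2afj was at 10.6 RPKM in cel-miR-67 and at 9.29, 9.97, 6.77, 8.05, 12.3 and 11.4 after the miRNAs, lowest after miR-373-3p, at 0.64 (0.47 to 0.87). H1fx was at 0.457 RPKM in cel-miR-67 and at 1.53, 1.49, 0.507, 0.995, 1.46 and 3.16 after the miRNAs. The linker variant H1fx rested on 6 reads in cel-miR-67 and 49 after miR-1825, and it reached the limit of 1 RPKM only through miRNA libraries.

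H3.3, the H3 variant deposited outside replication, was listed under H3f3b on 2 rows. ENSRNOG00000003220 was at 688 RPKM in cel-miR-67 and at 576, 434, 514, 571, 746 and 595 after the miRNAs. ENSRNOG00000006532 was at 105 RPKM in cel-miR-67 and at 109, 96.5, 116, 122, 112 and 128 after the miRNAs. The first row, of 411 bases, was the most abundant histone row in cel-miR-67 and below it in 5 libraries, by most after miR-590-3p, at 0.63 (0.61 to 0.66). The second, of 1655 bases, had ratios of 0.92 (0.88 to 0.96) after miR-590-3p to 1.22 (1.17 to 1.27) after miR-1825. The rows lay on opposite sides of the reference in 4 libraries, so no direction is given for H3.3 as a whole.

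**Figure D4:**
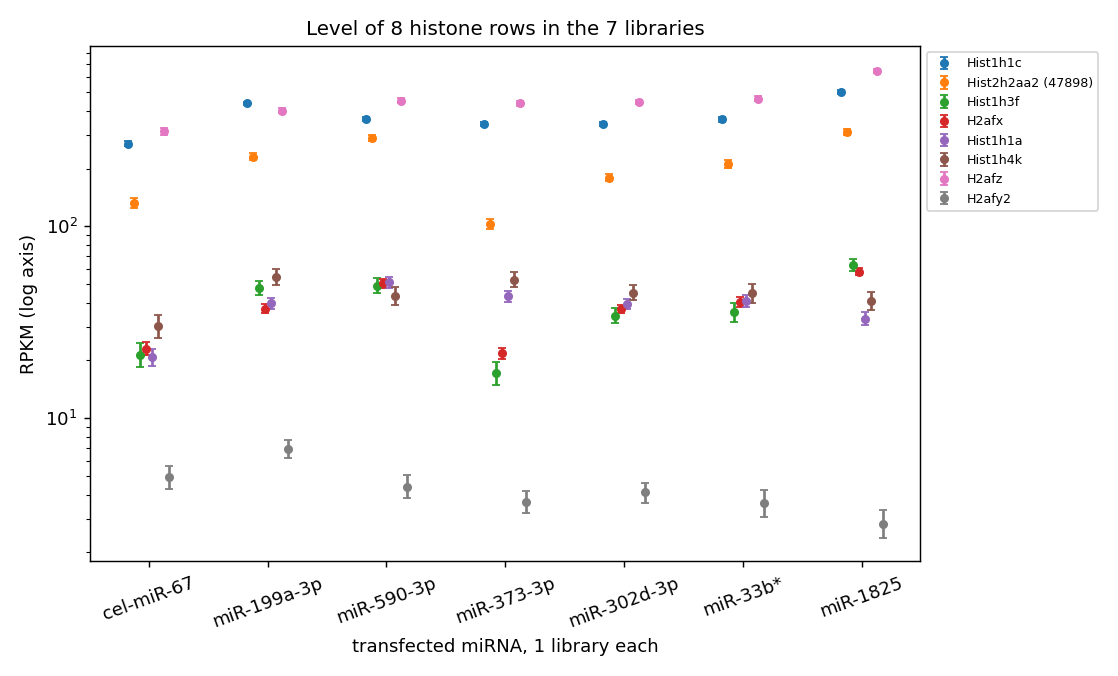
RPKM (y axis, log scale) of 8 histone rows in the 7 libraries (x axis, 1 library per miRNA), with exact 95% Poisson intervals of the reads, which cover counting error only. Hist2h2aa2, Hist1h3f and H2afx are lowest after miR-373-3p and highest after miR-1825, while Hist1h1a and Hist1h4k lie above cel-miR-67 in all 6 miRNA libraries.

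Of the genes that process histone transcripts, 18 rows (17 genes) were measured. Of these none was at least 1.5-fold higher in any library, and 0, 0, 1, 1, 0 and 0 were lower, against 4.81%, 4.70%, 4.83%, 5.11%, 5.17% and 5.94% of all genes higher and 5.55%, 3.49%, 6.56%, 7.32%, 5.52% and 6.33% lower. Their medians were 0.10, 0.04, 0.12, 0.11, 0.03 and 0.06. Slbp, which binds the stem-loop, was at 23.4 RPKM in cel-miR-67 and at 27.9, 29.97, 24.5, 24.5, 28.4 and 24.1 after the miRNAs, changes of 0.04 to 0.34. Npat, which activates histone transcription in S phase, was at 5.91 and at 6.26, 6.00, 6.49, 6.11, 7.11 and 5.86 RPKM. Lsm11, of the particle that cuts the transcripts, was at 6.98 and at 8.82, 9.66, 4.45, 6.07, 8.68 and 7.83 RPKM, lowest after miR-373-3p (log2 change -0.55). The row called lower was Mbnl1, a regulator of splicing and polyadenylation, with a change of -0.59 in the miR-373-3p library and of -0.86 in that of its seed partner.

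Histone chaperones carry histones to the DNA. Of the 31 measured rows (30 genes) 5, 7, 6, 4, 4 and 7 were at least 1.5-fold higher and none was lower, against 4.81%, 4.70%, 4.83%, 5.11%, 5.17% and 5.94% of all genes higher and 5.55%, 3.49%, 6.56%, 7.32%, 5.52% and 6.33% lower. Medians were 0.19, 0.25, 0.26, 0.21, 0.17 and 0.21. Asf1b, the H3 and H4 chaperone of dividing cells, was at 6.28 RPKM in cel-miR-67 and at 13.2, 14.2, 9.11, 5.63, 10.2 and 11.04 after the miRNAs. For Asf1b the miR-302d-3p library alone was not above the reference. Cenpa, the centromeric H3 variant, was at 2.77 and at 4.81, 9.33, 5.73, 6.11, 7.46 and 12.9 RPKM. Its chaperone gene Hjurp was at 6.02 and at 8.21, 11.3, 9.76, 8.01, 8.82 and 16.1 RPKM, and Oip5, of the complex that prepares centromeres for Cenpa, at 4.73 and at 5.59, 8.36, 7.81, 6.94, 10.2 and 16.7. These centromere genes all had their highest value after miR-1825.

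Cell cycle lists stand beside the histone rows because histone synthesis is tied to DNA replication. The 32 measured S phase genes had medians of 0.40, 0.32, 0.26, 0.12, -0.0045 and 0.07, with 5, 4, 3, 1, 1 and 3 genes higher and 0, 0, 0, 0, 0 and 1 lower. Of all genes 4.81%, 4.70%, 4.83%, 5.11%, 5.17% and 5.94% were higher and 5.55%, 3.49%, 6.56%, 7.32%, 5.52% and 6.33% lower. The 22 measured G2 and M phase genes had medians of 0.93, 1.30, 0.90, 0.73, 0.81 and 1.64, with 21, 22, 20, 17, 16 and 22 higher, against the same shares of all genes, and none lower. In the miR-33b* and the miR-1825 library the replication-dependent histone medians of 0.39 and 0.61 thus stood beside S phase medians near 0. Rrm2, which makes the building blocks of DNA, was at 49.6 RPKM in cel-miR-67 and at 75.3, 92.6, 59.8, 44.2, 36.4 and 111 after the miRNAs. Mcm2, of the replication helicase, was at 12.9 and at 22.5, 17.9, 16.2, 14.9, 15.8 and 12.7 RPKM. Top2a, which untangles DNA before division, was at 29.8 and at 67.8, 88.5, 55.1, 44.9, 59.00 and 132 RPKM, above the reference in every library. Whether the histone values move with the share of cycling cells was not tested.

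**Figure D5:**
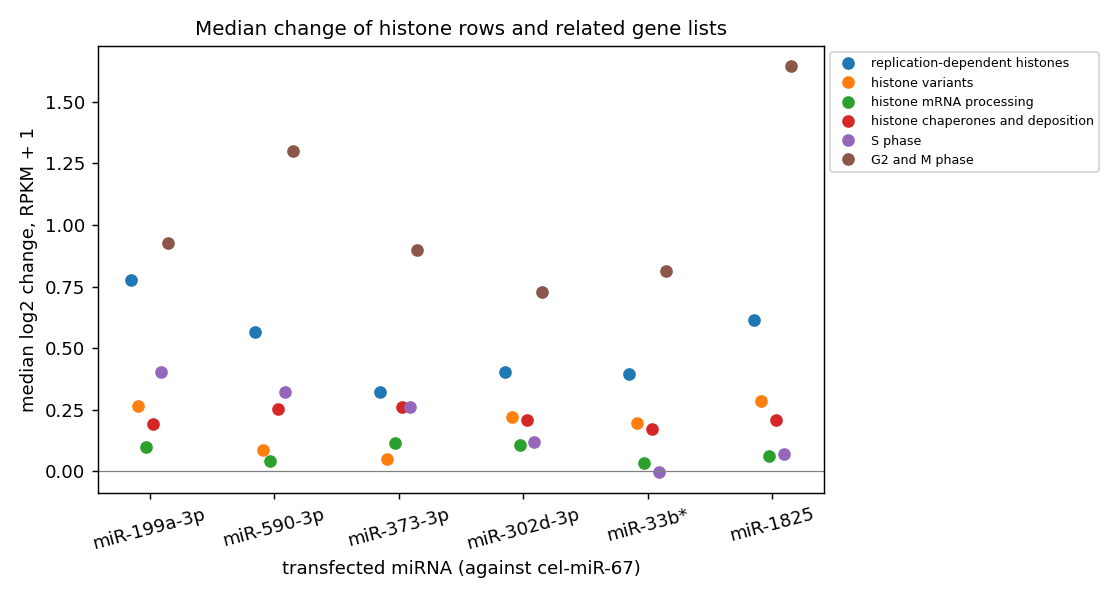
Median log2 change against cel-miR-67 (y axis, 1 RPKM added) of 6 groups of genes after each miRNA (x axis). The medians of the replication-dependent histones lie between 0.32 and 0.78, above those of the S phase genes and below those of the G2 and M phase genes in each library.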

How the data were processed

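The authors deposited RPKM values of 17141 genes in 7 libraries, and the ratio of each RPKM to that of cel-miR-67; these deposited ratios equalled the quotients of the RPKM. The submitters' processing notes name STAR 2.7, edgeR and Rnor_6.0 without a role. Annotation, counter, strand setting and the handling of reads that match several genes: not given in the sources used here.

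Whole reads, gene lengths and the library sizes used as divisors were recovered from the RPKM within 0.002 reads, or 0.05 for genes with many reads, and the step was checked on simulated data. The divisors (22446204 to 34708142) are scaled sizes, since the reads of the listed genes exceed them in 3 libraries; how they were scaled is not given in the sources used here. A row of 393 bases with 3 reads stands at 0.220 to 0.340 RPKM. Read ratios carry exact 95% intervals (scipy 1.17.1). Changes use a pseudocount of 1 RPKM, rows enter at a mean of 1 RPKM, and a call is 1.5-fold. No p-value was computed, since each miRNA has 1 library.

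The histone rows, the 4 gene lists and the cell type markers were chosen with earlier results of these data known. Rows with a mean of at least 5 RPKM, or past 1.5-fold in at least 3 libraries, are given in all 7 libraries. From the lists could be named Slbp, Npat, Asf1b, Cenpa and up to 5 genes a list of at least 5 RPKM with the widest range. Alternatives were other pseudocounts, filters, scalings and a reference made of the other miRNA libraries.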

Additional observations from a re-analysis of the deposited data

How the results depend on the processing

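No paired analysis was possible because each miRNA has 1 library, and for the same reason no library could be left out of a group. Rescaling to the reads outside the mitochondrial genome and dropping the filter moved no median or count of histone rows beyond its limit (counting error for a median, 1.5 times for a count). A pseudocount of 0.1 RPKM made 2 rows lower after miR-373-3p, where there were 0. With a pseudocount of 5 RPKM the variant median after miR-302d-3p was 0.15, 0 rows were lower after miR-1825, and 0 rows were higher in all 6 libraries. Among rows of at least 5 RPKM 0 were lower after miR-1825.

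Rescaling to the reads of the listed genes moved the median of all genes by 0.01 (miR-590-3p) to 0.30 (miR-199a-3p), and the histone medians moved with it. For miR-199a-3p the replication-dependent median became 1.13 and the variant median 0.60. For miR-302d-3p they became 0.65 and 0.47. For miR-33b* they became 0.51 and 0.31, for miR-373-3p 0.51 and 0.11, and for miR-1825 0.74 and 0.41. Higher rows were 16 after miR-373-3p and 26 for its seed partner (10 each before) and 4 in all 6 libraries (2 before), and 0 were lower after miR-1825.

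With the mean of the other 5 miRNA libraries as reference, cel-miR-67 drops out. By construction the lowest library of a row then falls below 0 and the highest above it, so these signs and lost calls say nothing on whether the 6 libraries lie above cel-miR-67. The replication-dependent median was then 0.27 for miR-199a-3p and 0.10 for miR-1825, and turned negative for miR-373-3p (-0.21), its seed partner miR-302d-3p (-0.13) and miR-33b* (-0.12). The variant median was 0.20 for miR-1825 and turned negative for miR-199a-3p (-0.065), for miR-373-3p (-0.16) and its seed partner (-0.086). Higher rows were 5 for miR-1825, 6 for miR-199a-3p, only 1 for miR-590-3p and 0 for the rest, with 0 in all 6 libraries. Lower rows were 9 for miR-373-3p, 1 for its seed partner, 1 for miR-33b* and 0 for both miR-590-3p and miR-1825. Of 113 single calls against cel-miR-67 17 changed sign and 11 were still past 1.5-fold. With a pseudocount of 5 RPKM 92 were still past it, with the rescaling to listed reads 112, and in neither did a call change sign. Depth limits the rows of few reads, such as Hist1h2aa, H1fx and Hist2h2ab.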
